A study of Caenorhabditis elegans with 6 samples.

Results

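The 8 rsp genes of the nematode Caenorhabditis elegans, rsp-1 to rsp-8, encode its family of SR proteins and an SR-like relative, and were chosen by their gene symbols from 46745 named genes. All 8 passed the filter on low counts that left 15090 genes, and they have 17 of the 56134 named transcripts. Messenger RNA was sequenced from mixed-stage hermaphrodites, with embryos, larvae and adults together, of the mutant strain plp-1(ok2155) (3 libraries) and of the wild-type strain N2 (3 libraries). The labels call the 3 libraries of a group biological replicates. All animals grew at 20 °C on OP50 bacteria until the plates were full but not starved. The allele ok2155 affects plp-1, whose product resembles Pur-alpha, a protein that binds DNA and RNA. Every cell of a worm is in the sample, so fewer cells of a type and less RNA per cell cannot be told apart.

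SR proteins bind messenger RNA precursors through RNA recognition motifs and contact other splicing factors through a domain rich in arginine and serine. They help the spliceosome to recognise exons and influence which splice site is used, and kinases of the SRPK family control them by phosphorylating the arginine and serine domain. Genes of SR proteins in many animals also make transcripts with an early stop codon, which nonsense-mediated decay, the pathway of the smg genes in C. elegans, removes.

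The genes lie on chromosomes II, III and IV of the WBcel235 assembly, and all positions here come from the Ensembl annotation of that assembly. Their gene IDs in the deposited table, from rsp-1 to rsp-8, are 174748, 174747, 176688, 173915, 174073, 177566, 174646 and 176613. rsp-2 (chrII:11451441-11452955, minus strand), related to mammalian SRp40, and rsp-1 (chrII:11453362-11455864, plus strand), related to SRp75, are neighbours that point away from each other with 406 bases between them. rsp-4 (chrII:5387411-5388836, minus strand), the relative of SC35, rsp-5 (chrII:6490165-6491340, plus strand), also SC35-like, and rsp-7 (chrII:10659206-10662317, plus strand), a relative of mammalian p54, are on the same chromosome. rsp-3 (chrIII:12686182-12687922, minus strand) is the relative of SF2/ASF, and its depletion by RNA interference kills embryos. rsp-8 (chrIII:11826418-11830974, plus strand) is related to the Tra2 proteins, and rsp-6 (chrIV:7789847-7791229, minus strand) to SRp20. Exons of 5 of the genes share bases with an exon of another annotated gene: 59 bases for rsp-1 with a pseudogene, 5 for rsp-2 with W02B12.1, 44 for rsp-3 with elpc-2, 8 for rsp-4 with ndx-6 and 73 for rsp-7 with D2089.8. ndx-6 is on the same strand as rsp-4, and the other 4 are on the opposite strand. The libraries were stranded, but no label states a strand setting for the counting, so whether reads from those bases were separated is not known. The overlaps were taken from full exons, and the deposited protein-coding models hold coding length only. Some of those bases may therefore lie outside the deposited models.

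rsp-2 and rsp-3 have 1 deposited transcript each and the other 6 genes have 15 among them. Each of these 6 genes has a main model, the a form, and together they have 9 lesser ones. In rsp-6 the lesser models are 2 noncoding RNAs: C33H5.12b has an additional exon of 247 bases (chrIV:7790499-7790745) inside the intron of the main model, and C33H5.12c keeps that intron whole, 439 bases (chrIV:7790398-7790836). In rsp-1 the noncoding W02B12.3d keeps an intron of 511 bases (chrII:11454514-11455024) and extends past both ends of the main model, by 619 and 174 bases. The short coding forms W02B12.3b of rsp-1, EEED8.7b of rsp-4, T28D9.2b of rsp-5 and D2089.1b of rsp-7 end in sequence that the main model skips, with 18, 37, 61 and 24 coding bases outside the main model. For each of these 4 forms the annotation has at least 1 full-length model with between 1 and 3 exon junctions after the stop codon. The deposited protein-coding models hold coding length only, so the later exons of these forms are not in their models. W02B12.3c of rsp-1 is a late-starting coding form with 3 bases outside the main model, which lie in the intron that W02B12.3d keeps. C18D11.4b of rsp-8 has no base outside the main model: its 435 coding bases lie within the 930 of C18D11.4a.

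**Figure D1:**
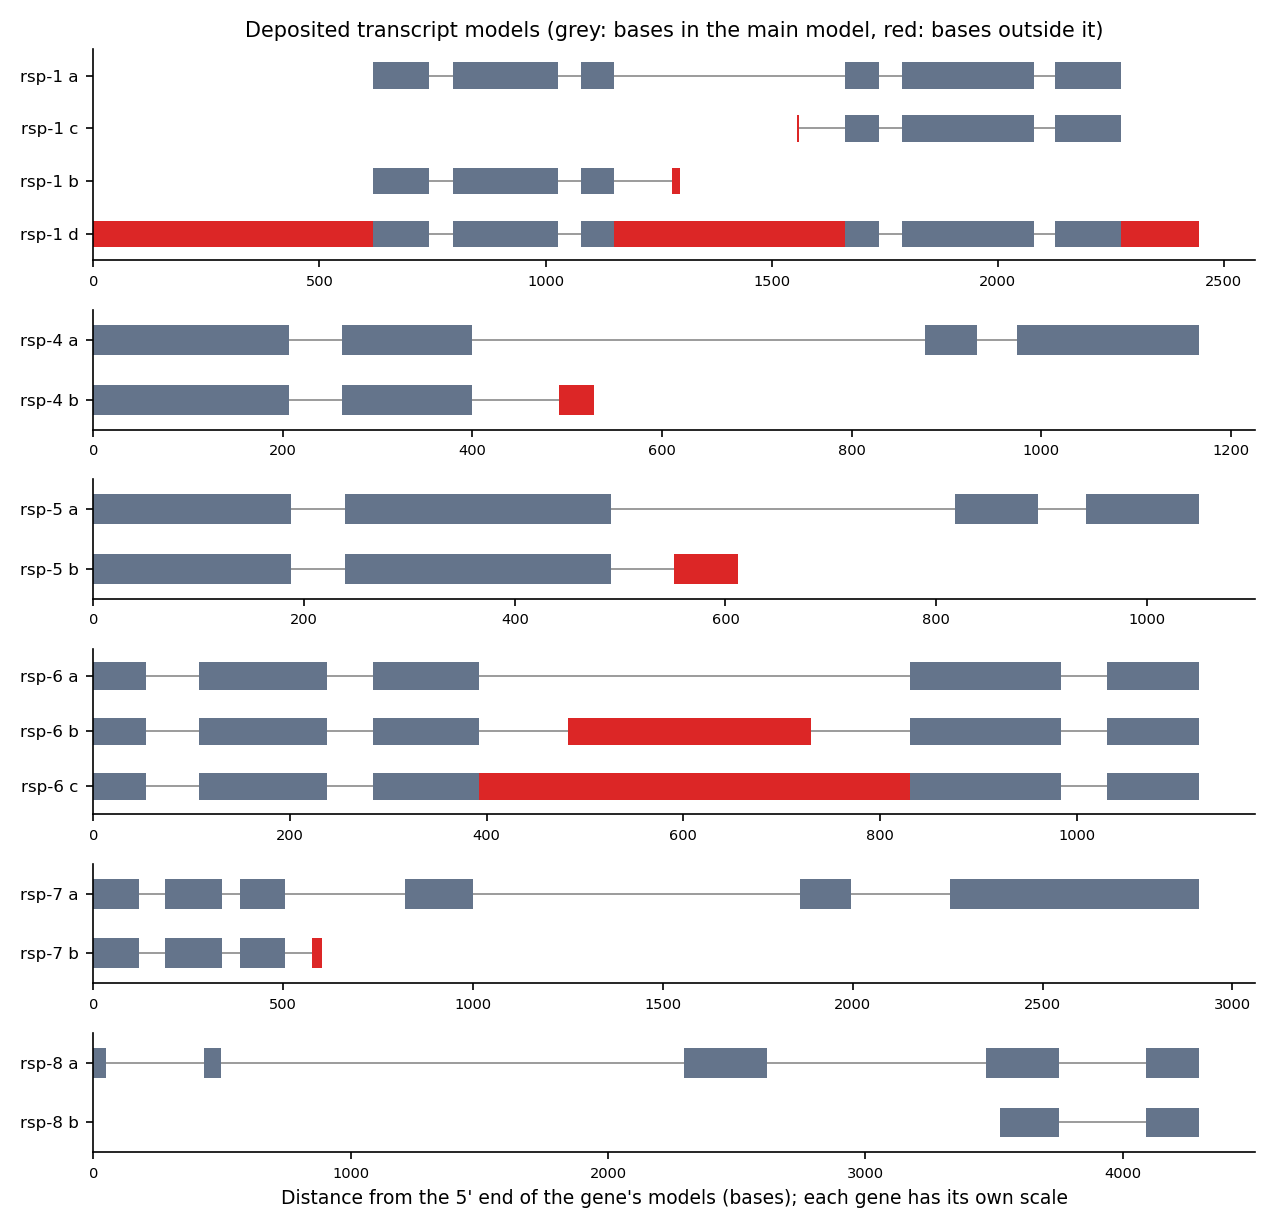
Deposited transcript models of the 6 rsp genes with more than 1 transcript, drawn from the 5' end of each gene's models (x axis, bases, a separate scale per gene), with boxes for the bases of a model and lines for introns. Grey boxes are bases of the main model and red boxes are bases outside it: rsp-6 b and c differ from a in its longest intron, and rsp-8 b has no red box.

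As a check of the labels, plp-1 itself held 920, 888 and 959 counts in the mutant libraries, against 18944, 20356 and 12639 in the wild-type libraries. The libraries of plp-1(ok2155) held between 41922986 and 46798433 counts of named genes, and those of wild-type between 39330275 and 53472946. The 8 rsp genes took between 0.105% and 0.163% of the counts in a mutant library and between 0.0893% and 0.135% in a wild-type library. The counts of a single rsp gene in a library ran from 2189 to 18515, so counting error was small beside the spread between libraries. Over all tested genes the biological coefficient of variation was 47.1%. This value is no measure of the rsp genes alone, whose SDs are given with their levels.

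Levels were compared between genes in deposited FPKM, which scale fragments by the length of a gene model and the size of a library. rsp-3 was the most abundant of the 8, with 371.5 ± 83.1 FPKM over all libraries (SD, n = 6), and rsp-7 the least, with 82.9 ± 24.0 FPKM. Between them came rsp-6 at 269 ± 56.2 FPKM, rsp-1 at 232 ± 52.9 FPKM and rsp-4 at 227 ± 62.6 FPKM. rsp-5 followed at 169 ± 36.5 FPKM, rsp-2 at 161 ± 51.3 FPKM and rsp-8 at 103.8 ± 26.1 FPKM. rsp-3 was above rsp-6 and rsp-6 above rsp-1 in 6 of 6 libraries. rsp-4 was above rsp-5 and rsp-2 above rsp-8 in 6 of 6 libraries as well. The neighbours rsp-1 and rsp-4 could not be ordered, since rsp-1 was the higher in 3 of 6 libraries. rsp-5 was above rsp-2 in 4 of 6 libraries and rsp-8 above rsp-7 in 5 of 6, so these neighbours did not separate in every library either.

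**Figure D2:**
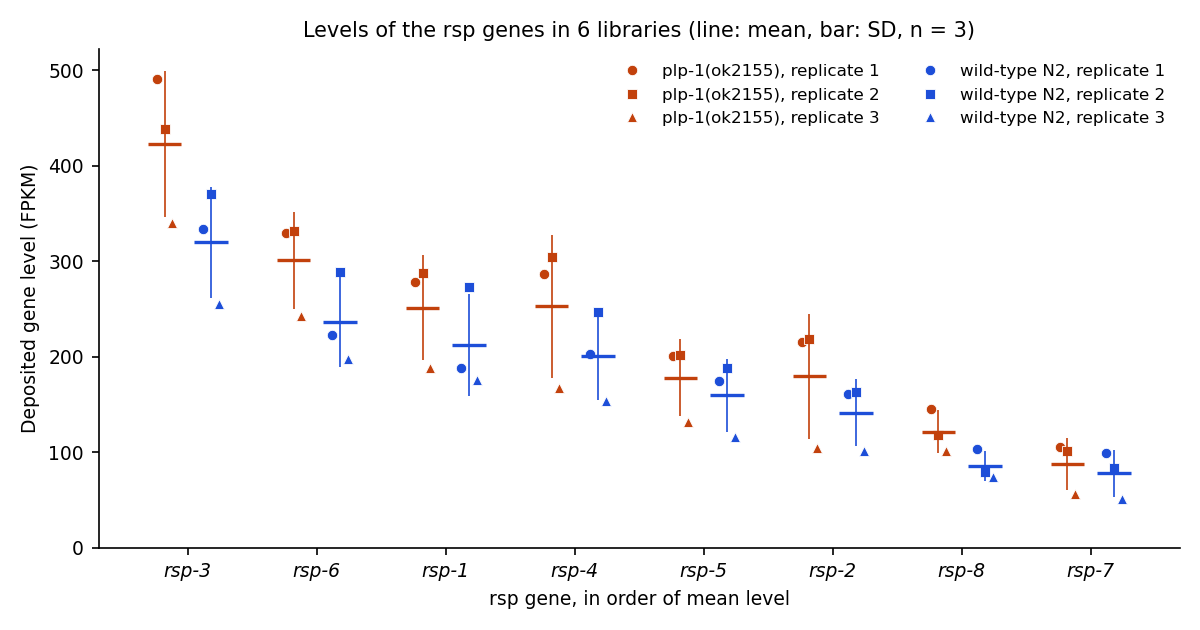
Deposited FPKM of each rsp gene (y axis) in the 3 plp-1(ok2155) libraries (left, orange) and the 3 wild-type libraries (right, blue), with symbols for the replicate number, a horizontal line for the mean and a vertical bar for the SD. The groups of every gene overlap, and rsp-3 has the highest level in all 6 libraries.

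The comparison of the strains asked whether the mutant animals had other levels of SR protein transcripts than wild-type. No rsp gene passed the test: 0 of 8 were called by edgeR's quasi-likelihood test with Benjamini-Hochberg adjustment over all 15090 genes, DESeq2 called 0 of 8, and in edgeR 0 of 8 reached an unadjusted p under 0.05. Over all genes the test called 52, which is 0.345% (40 higher and 12 lower), and 9.56% had an unadjusted p under 0.05. With the replicate number as a block it called 219 genes, or 1.45%, and DESeq2 called 563, or 3.73%; neither included an rsp gene. With any 1 library left out edgeR called between 1 and 23 genes, again no rsp gene. The 8 log2 fold changes were all positive, between 0.13 and 0.44, with a median of 0.29 beside a median of -0.03 over all genes, of which 47.5% were positive. The 8 genes share libraries and moved together across them, so the count of 8 does not stand for 8 separate measurements.

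The gene levels that follow are CPM, counts scaled to a common library size by the trimmed mean of M-values (TMM), given for replicates 1, 2 and 3 of each group. rsp-3, the SF2/ASF relative, had 412, 329.8 and 277 CPM in plp-1(ok2155), against 225, 318 and 244 CPM in wild-type. The highest values were in mutant replicates 1 and 2, and mutant replicate 3 lay among the wild-type libraries. Its log2 fold change was 0.37 (SE 0.27, edgeR adjusted p = 0.719), and the 95% interval of the fold ran from 0.844 to 1.99.

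rsp-4, the SC35 relative, had 182, 174 and 103.0 CPM in plp-1(ok2155), against 103.7, 161 and 111.2 CPM in wild-type. Mutant replicate 3 was the lowest of all 6 libraries, while mutant replicates 1 and 2 were the highest. The log2 fold change was 0.29 (SE 0.30, edgeR adjusted p = 0.806), with a fold between 0.758 and 1.97. rsp-5, which is also SC35-like, had 135, 122 and 86.1 CPM in plp-1(ok2155), against 94.2, 129.8 and 88.9 CPM in wild-type. The groups covered nearly the same range. Its log2 fold change, 0.13 (SE 0.27, edgeR adjusted p = 0.909), was the smallest of the 8, with a fold between 0.718 and 1.67; leaving out wild-type replicate 3 gave -0.02 and leaving out mutant replicate 1 gave -0.01.

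rsp-6, the SRp20 relative, had 201, 180.3 and 144 CPM in plp-1(ok2155), against 113.4, 179 and 139 CPM in wild-type. Wild-type replicate 1 stood lowest, and wild-type replicate 2 was close to mutant replicate 2. The log2 fold change was 0.29 (SE 0.26, edgeR adjusted p = 0.780), with a fold between 0.807 and 1.85.

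The adjacent genes rsp-1 and rsp-2 did not follow each other in every library. rsp-1 had 302, 285 and 203 CPM in plp-1(ok2155), against 172, 309 and 218 CPM in wild-type, and wild-type replicate 2 was the highest of the 6. rsp-2 had 197, 179 and 92.4 CPM in plp-1(ok2155), against 118, 152.1 and 106 CPM in wild-type, and mutant replicate 3 was the lowest of the 6. The mutant range lay within the wild-type range for rsp-1, and the wild-type range within the mutant range for rsp-2. The log2 fold change of rsp-1 was 0.18 (SE 0.30, edgeR adjusted p = 0.887), with a fold between 0.703 and 1.82, and was -0.01 without wild-type replicate 1. That of rsp-2 was 0.32 (SE 0.32, edgeR adjusted p = 0.799), with the widest interval of the 8 genes, a fold between 0.748 and 2.09.

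rsp-7, the p54 relative, had 151, 130.1 and 77.4 CPM in plp-1(ok2155), against 112, 122 and 81.7 CPM in wild-type. Replicate 3 was the lowest library of both groups. Its log2 fold change was 0.18 (SE 0.30, edgeR adjusted p = 0.884), with a fold between 0.702 and 1.83; it became -0.03 when wild-type replicate 3 was left out, and -0.02 when mutant replicate 1 was.

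rsp-8, the Tra2-like gene, had 110.4, 81.3 and 76.4 CPM in plp-1(ok2155), against 67.5, 64.2 and 65.6 CPM in wild-type. It was the only rsp gene in which every mutant library lay above every wild-type library, a pattern that 14.2% of all tested genes showed in either direction and 8.75% in this direction. The wild-type libraries differed little, at 65.8 ± 1.65 CPM (SD, n = 3), against 89.4 ± 18.3 CPM (SD, n = 3) in the mutant. The log2 fold change of 0.44 was the largest of the family but did not pass the test (SE 0.23, edgeR adjusted p = 0.605), and the fold lay between 0.943 and 1.96. In deposited FPKM, which uses library totals, the values were 146, 118 and 102 in plp-1(ok2155) and 103, 79.6 and 74.1 in wild-type, so the groups just overlapped.

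**Figure D3:**
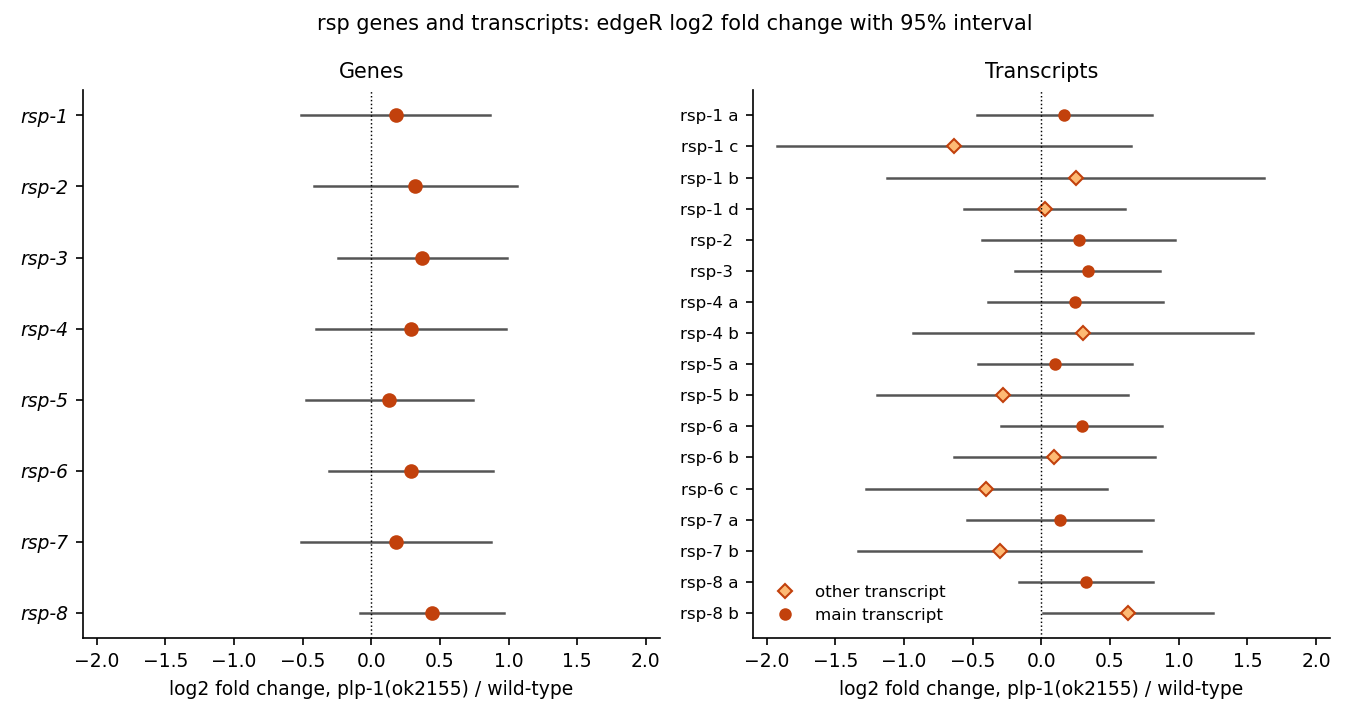
Log2 fold change of plp-1(ok2155) over wild-type from edgeR (x axis, points) with its 95% interval (lines) for the 8 rsp genes (left) and their 17 transcripts (right; circles, main transcript of a gene; diamonds, other transcripts). All 8 gene intervals include 0, and the interval of rsp-8 b is the only 1 of the 17 transcript intervals that does not.

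The members followed a similar course over the libraries, including libraries of the same strain. After centring each gene's log2 CPM on its mean over the 6 libraries, the mean over the 8 genes was 0.43, 0.24 and -0.28 in plp-1(ok2155) replicates 1, 2 and 3, and -0.28, 0.16 and -0.27 in wild-type replicates 1, 2 and 3. Mutant replicate 3 therefore sat level with wild-type replicates 1 and 3, and wild-type replicate 2 was close to mutant replicate 2. Mutant replicate 1 was the highest library for 7 of the genes, all but rsp-1. The lowest was mutant replicate 3 for 4 genes, wild-type replicate 1 for 3 and wild-type replicate 2 for rsp-8. Summed over the family, the level was 1691, 1481 and 1059.7 CPM in plp-1(ok2155), against 1005, 1434 and 1053 CPM in wild-type.

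Among the 8, the most alike profiles were those of rsp-3 and rsp-6, with a root mean square difference of 0.08 in centred log2 CPM over the 6 libraries. The least alike were rsp-2 and rsp-8, at 0.32. Distances of single rsp genes from the mean of the family ran from 0.08 to 0.22 with a median of 0.12. The median was 0.34 for the 6436 other tested genes of at least 20 CPM, which were not matched to the rsp genes for level. Each rsp gene is part of the family mean, which lowers its own distance, so these medians are not a like comparison. The nearest of those genes to the mean profile were ruvb-1, a RuvB-like ATPase gene, at 0.03, nifk-1, a homologue of the nucleolar protein NIFK, at 0.04, and syx-4, a syntaxin gene, at 0.05. The gene nearest to each member was mob-4 for rsp-1 (0.05), mct-5 for rsp-2 (0.05), vgln-1 for rsp-3 (0.08), skpo-1 for rsp-4 (0.04), mrpl-17 for rsp-5 (0.04), snrp-40.1 for rsp-6 (0.05), div-1 for rsp-7 (0.04) and T02H6.1 for rsp-8 (0.03). With 6 libraries and so many candidates, a close profile is a description and no sign of a shared role.

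Markers of stage and tissue moved between the same libraries. The summed level of 20 oocyte and maternal transcripts, all above 0 in every library, was 11753, 8071 and 5587 CPM in plp-1(ok2155), against 6985, 6061 and 6006 CPM in wild-type. That of 10 germ cell genes was 2288, 1825 and 1544 CPM in plp-1(ok2155), against 1522, 1538 and 1348 CPM in wild-type. Mutant replicates 1 and 2 were the highest libraries for both of these lists. Within wild-type, replicate 1 was the highest for the oocyte list and replicate 2 for the germ cell list. The mean centred log2 CPM of the rsp genes was lowest there in replicate 1 (-0.28) and highest in replicate 2 (0.16). The sum of 27 sperm genes, 26 of them above 0 in every library, was 179, 205 and 57.01 CPM in plp-1(ok2155), against 15.4, 7.69 and 30.7 CPM in wild-type. The 6 yolk genes of adults, all above 0 in every library, held between 44681 and 94477 CPM in mutant libraries and between 37125 and 159710 CPM in wild-type libraries. Lists of cuticle (14 genes), body wall muscle, neuron and intestine genes (10 each) had every member above 0 in all libraries. Their sums ran from 665 to 1032 CPM in mutant and 627 to 1222 CPM in wild-type libraries for cuticle, and from 3337 to 5457 CPM in mutant and 2355 to 5317 CPM in wild-type libraries for muscle. The mutant sums for cuticle lay within the wild-type range, while the median log2 fold change of its 14 genes was 2.29, so the sum and the median gave different pictures. Neuron sums ran from 159 to 190.2 CPM in mutant and 154 to 246 CPM in wild-type libraries, and intestine sums from 4459 to 8196 CPM in mutant and 5076 to 13630.1 CPM in wild-type libraries. The median log2 fold changes of the other lists were 3.11 for sperm (26 genes tested), 0.50 for oocyte and maternal, 0.26 for germ cell, 0.28 for muscle, -0.39 for neuron, -0.58 for yolk and -0.66 for intestine genes. The part of these differences in the rsp values was not tested.

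**Figure D4:**
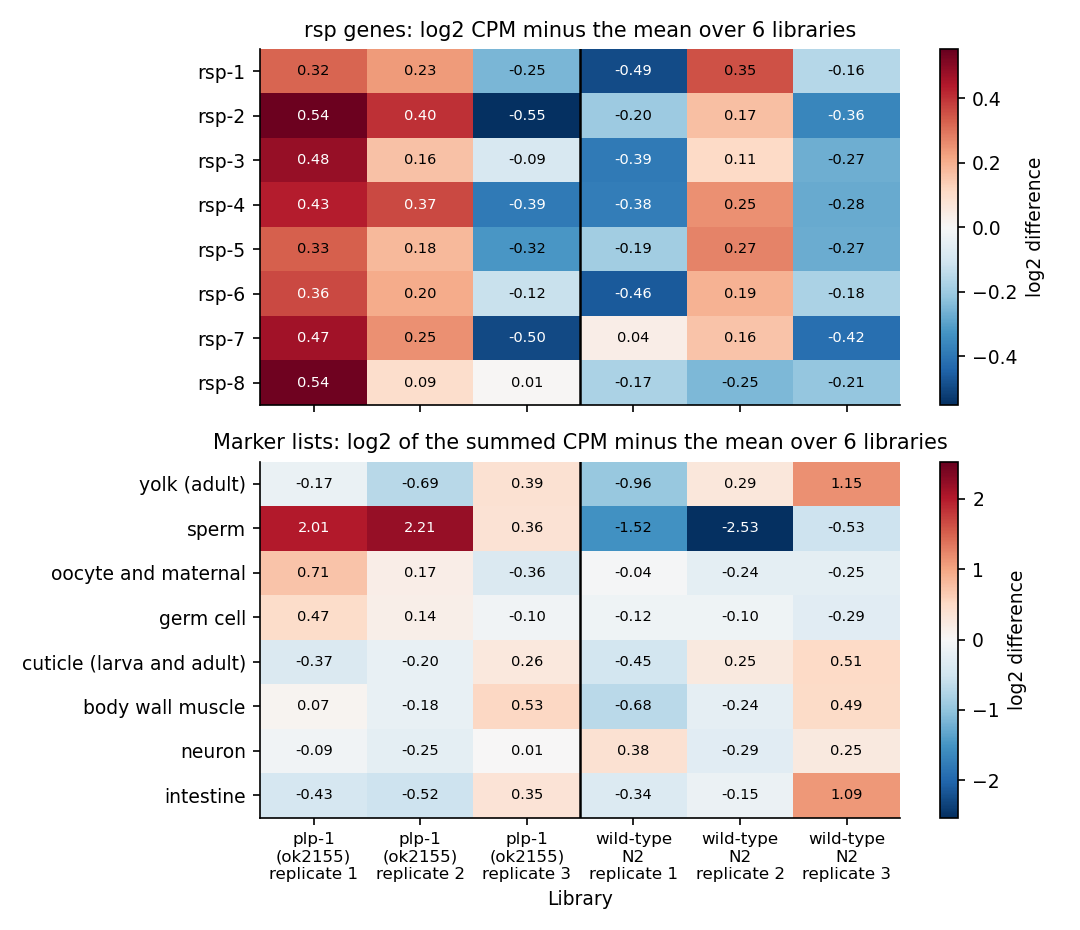
Log2 CPM of the 8 rsp genes (top) and log2 of the summed CPM of 8 marker lists (bottom), each minus its mean over 6 libraries, with plp-1(ok2155) replicates left of the line and wild-type replicates right of it (colour and number, log2 difference; the panels have separate colour scales). Columns of the top panel are alike for most genes, with mean values of 0.43 in mutant replicate 1 and -0.28 in mutant replicate 3.

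The 17 transcripts showed no call either. edgeR's quasi-likelihood test on transcript counts called 0 of 17 after adjustment over 20551 transcripts, and DESeq2 called 0 of 17; over all transcripts edgeR called 12, or 0.0584%, with the replicate block 0, and DESeq2 529, or 2.57%. With any 1 library left out edgeR called between 0 and 24 transcripts. At an unadjusted p under 0.05 there was 1 of 17, C18D11.4b of rsp-8, where 7.63% of all transcripts passed. With 1 library left out, its unadjusted edgeR p was under 0.05 only without mutant replicate 3. It was not under 0.05 with library totals without TMM. With the replicate block both rsp-8 transcripts had an unadjusted p under 0.05. The main transcript of all 8 genes had a positive log2 fold change, and 4 of the 9 lesser transcripts a negative one: W02B12.3c of rsp-1 (-0.63), T28D9.2b of rsp-5 (-0.28), C33H5.12c of rsp-6 (-0.40) and D2089.1b of rsp-7 (-0.30). The use of transcripts within a gene was tested with edgeR's diffSpliceDGE. It called 0 of the 6 rsp genes with more than 1 transcript, with Simes adjusted p-values of 1.00, beside 16 of 3288 genes, or 0.487%, and 4, or 0.122%, with the replicate block (7 to 22 with any 1 library left out). No rsp transcript had an unadjusted p under 0.05 in that test, the smallest being 0.395 for C33H5.12c, where 1.37% of all transcripts did.

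The shares of transcripts are percentages of the summed FPKM of a gene. The main transcript took most of it in all 6 genes, and by a wide margin in 5 of them: in rsp-4 its share was 99.0% ± 0.327 in plp-1(ok2155) and 99.0% ± 0.574 in wild-type (SD, n = 3 each), and in rsp-5 97.1% ± 0.345 in plp-1(ok2155) and 96.1% ± 0.874 in wild-type. In rsp-7 it was 95.8% ± 0.957 in plp-1(ok2155) and 94.6% ± 1.11 in wild-type, in rsp-1 92.8% ± 1.08 in plp-1(ok2155) and 91.9% ± 1.46 in wild-type, and in rsp-6 90.7% ± 0.940 in plp-1(ok2155) and 88.4% ± 5.16 in wild-type. The groups of all 5 overlapped.

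The lesser transcripts of those 5 genes with an early stop or no coding region took small shares by FPKM. The exon-including C33H5.12b of rsp-6 had the highest mean share by FPKM in both groups, with 9.37%, 7.25% and 8.49% of the gene in plp-1(ok2155), against 15.1%, 6.06% and 9.06% in wild-type. Wild-type replicate 1 was the highest and wild-type replicate 2 the lowest, so the mutant libraries lay inside the wild-type range. By counts this transcript took 20.3% of the gene in wild-type replicate 1, with a 95% Wilson interval from 19.4% to 21.3%. In wild-type replicate 2 it took 8.54%, with an interval from 7.96% to 9.15%. These intervals cover counting error only. No base belongs to C33H5.12b alone, so its counts also depend on how reads were divided between the rsp-6 models. The intron-retaining C33H5.12c took 0.787%, 1.03% and 0.907% in plp-1(ok2155), against 2.02%, 0.887% and 1.69% in wild-type. Wild-type replicates 1 and 3 were the highest, and wild-type replicate 2 lay among the mutant libraries.

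In rsp-1, the noncoding W02B12.3d took 5.40%, 6.78% and 7.25% in plp-1(ok2155), against 8.90%, 6.62% and 5.94% in wild-type. Its model includes bases beyond the coding part while those of the coding transcripts do not, so its share depends on which models were deposited. The early-stop W02B12.3b took between 0.459% and 0.766% in plp-1(ok2155) and between 0.301% and 0.944% in wild-type. W02B12.3c, on 11 to 22 counts a library, took between 0.154% and 0.243% in plp-1(ok2155) and between 0.177% and 0.533% in wild-type. EEED8.7b of rsp-4 had 56, 40 and 38 counts in plp-1(ok2155), against 51, 21 and 37 in wild-type, which were 1.05%, 0.691% and 1.34% of the gene's FPKM in plp-1(ok2155) and 1.17%, 0.409% and 1.53% in wild-type. Wild-type replicate 2 was the lowest, and the mutant values lay within the wild-type range.

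T28D9.2b of rsp-5 took 3.04%, 3.15% and 2.51% in plp-1(ok2155), against 4.19%, 2.95% and 4.63% in wild-type. D2089.1b of rsp-7 took 3.45%, 3.91% and 5.29% in plp-1(ok2155), against 6.56%, 4.36% and 5.30% in wild-type. In both the wild-type replicates 1 and 3 were the highest, and wild-type replicate 2 fell within the mutant range. Summed over the early-stop and noncoding transcripts of a gene, the share overlapped between the groups in all 5 genes. Its mean was lower in the mutant in each of the 5, but this direction rested on wild-type replicate 1 in 3 of them: without that library the mutant mean was higher than the wild-type mean by 0.147 percentage points in rsp-1, 0.0572 in rsp-4 and 0.428 in rsp-6. In rsp-4, where the difference with all libraries was -0.0099 percentage points, it was also positive without mutant replicate 2 (0.158) and without wild-type replicate 3 (0.238). rsp-5 and rsp-7 kept a lower mutant mean with any 1 library left out. For rsp-6 it was 9.28% ± 0.940 in plp-1(ok2155) and 11.6% ± 5.16 in wild-type, and for rsp-1 7.05% ± 1.04 in plp-1(ok2155) and 7.73% ± 1.43 in wild-type. It was 4.22% ± 0.957 in plp-1(ok2155) and 5.41% ± 1.11 in wild-type for rsp-7, 2.90% ± 0.345 in plp-1(ok2155) and 3.92% ± 0.874 in wild-type for rsp-5, and 1.03% ± 0.327 in plp-1(ok2155) and 1.04% ± 0.574 in wild-type for rsp-4 (SD, n = 3 each). Wild-type replicate 1 had the highest summed share in rsp-1, rsp-6 and rsp-7 and wild-type replicate 3 in rsp-4 and rsp-5.

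rsp-8 was the exception in its balance of transcripts, since the short C18D11.4b took a large part of the gene's FPKM. Its level was 67.0, 52.0 and 44.2 FPKM in plp-1(ok2155), against 37.1, 32.2 and 31.4 FPKM in wild-type. Every mutant library was above every wild-type library. The share of all transcripts whose levels separate in this way was not counted, but 8.75% of all tested genes did so in CPM. The separation alone therefore does not set this transcript apart. The long C18D11.4a had 78.6, 66.1 and 57.6 FPKM in plp-1(ok2155), against 66.3, 47.4 and 42.7 FPKM in wild-type, and its groups overlapped. The share of C18D11.4b was 46.0%, 44.0% and 43.4% in plp-1(ok2155), against 35.9%, 40.4% and 42.4% in wild-type. All 3 mutant shares were above all 3 wild-type shares, though the lowest mutant and the highest wild-type share were close. The means were 44.5% ± 1.37 in plp-1(ok2155) and 39.6% ± 3.35 in wild-type (SD, n = 3 each). By counts, which are not divided by the length of the model, its share was smaller. It was 28.5%, 26.9% and 26.4% in plp-1(ok2155), against 20.7%, 24.1% and 25.6% in wild-type.

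The 2 rsp-8 transcripts, whose shares mirror each other, were the only ones of the 15 in genes with several transcripts whose shares did not overlap; among 11245 such transcripts of all genes, 11.4% did not overlap, and 5.7% were higher in every mutant library. Of the 15, 9 did not overlap when wild-type replicate 2 was left out, beside 23.1% of all such transcripts, and 4 when mutant replicate 3 was, beside 22.8%. The 9 include both transcripts of rsp-5, rsp-7 and rsp-8. In each of these genes the 2 shares mirror each other and are not separate results. The log2 fold change of C18D11.4b was 0.63 (SE 0.26, edgeR adjusted p = 0.646) and that of C18D11.4a 0.32 (SE 0.20, edgeR adjusted p = 0.769). In the test of use, the short transcript differed from its gene by 0.23 on the log2 scale in the mutant relative to wild-type, and the Simes p of rsp-8 after adjustment was 1.00, so the difference in share did not pass. With 3 libraries against 3, the smallest two-sided exact permutation p is 0.1. Every base of C18D11.4b is also in C18D11.4a, so no base belongs to the short model alone, and how reads were divided between them is not shown in the tables. W02B12.3a, W02B12.3b and W02B12.3c of rsp-1 and C33H5.12a and C33H5.12b of rsp-6 also have no base that belongs to them alone.

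**Figure D5:**
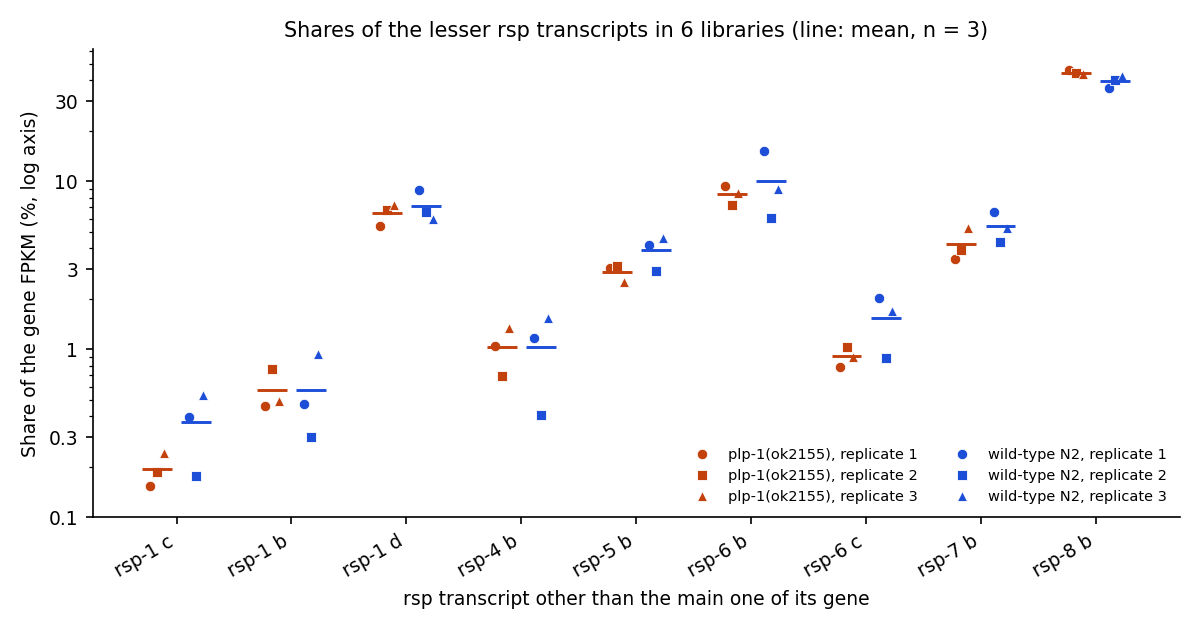
Share of each lesser rsp transcript in the summed FPKM of its gene (y axis, percent, log axis) in plp-1(ok2155) (left of each pair, orange) and wild-type (right, blue), with symbols for the replicate number and a line for the mean (n = 3). Groups overlap for every transcript except rsp-8 b, whose mutant libraries sit between 43.4% and 46.0%, above the wild-type libraries at 35.9% to 42.4%.

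The genes that work with SR proteins were described from lists of splicing factors. Of all tested genes, for comparison, edgeR called 0.345%, the replicate block 1.45% and DESeq2 3.73%. An edgeR unadjusted p under 0.05 was reached by 9.56%, and 47.5% had a positive log2 fold change, with a median of -0.03. In 8.75% every mutant library lay above every wild-type library. Of 16 symbols of SR partners and splice site recognition factors, 15 were in the table and tested, none was called by edgeR, DESeq2 or the replicate block, and 1 had an unadjusted p under 0.05. Their median log2 fold change was 0.24, with 11 of 15 positive. That 1 was rnp-5, a relative of the SR-related protein RNPS1, with 121, 86.7 and 68.3 CPM in plp-1(ok2155), against 59.3, 55.5 and 51.2 CPM in wild-type. Its groups did not overlap, and its log2 fold change was 0.73 (SE 0.26, edgeR adjusted p = 0.398). spk-1, the SRPK kinase that phosphorylates SR proteins, had 262, 191 and 169 CPM in plp-1(ok2155), against 184, 121 and 135 CPM in wild-type. The lowest mutant value lay below the highest wild-type value, and the log2 fold change was 0.50 (SE 0.28, edgeR adjusted p = 0.625). For rsr-1, a relative of the SR-related matrix protein SRm160, it was 0.65 (SE 0.34, edgeR adjusted p = 0.606).

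Of 43 symbols of core spliceosome genes 37 were tested and 0 called by edgeR, by DESeq2 or with the replicate block, with 0 at an unadjusted p under 0.05. Their median log2 fold change was 0.07, and 26 of 37 were positive. The groups overlapped in all 37, while 14.2% of all tested genes had groups without overlap in either direction. The smallest p-values belonged to snrp-200, a helicase of the U5 particle (0.65, SE 0.31, edgeR adjusted p = 0.558), teg-4, a subunit of the SF3b complex (0.49, SE 0.27, edgeR adjusted p = 0.624), and prp-8, the central spliceosome protein (0.58, SE 0.34, edgeR adjusted p = 0.656). Of 20 hnRNP and tissue-specific splicing regulators 17 were tested and 0 called by either tool or with the block, with 0 at an unadjusted p under 0.05; the median was 0.21 and 12 were positive. The smallest p-values were those of hrpf-2 (0.55, SE 0.26, edgeR adjusted p = 0.563), hrp-2 (0.49, SE 0.27, edgeR adjusted p = 0.624) and hrp-1 (0.42, SE 0.26, edgeR adjusted p = 0.673), with log2 fold changes in parentheses. Among the 17, the groups of hrp-2 alone did not overlap, with all mutant values higher, a pattern that 8.75% of all tested genes showed.

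All 11 genes of nonsense-mediated decay were tested and 0 called by edgeR, by DESeq2 or with the replicate block, with 0 at an unadjusted p under 0.05; the median log2 fold change was 0.04 and 7 were positive. smg-2, the helicase at the centre of the pathway, had 125, 83.6 and 82.5 CPM in plp-1(ok2155), against 82.4, 66.1 and 69.7 CPM in wild-type. Its lowest mutant value was just above its highest wild-type value, a pattern that 8.75% of all tested genes showed. The log2 fold change was 0.42 (SE 0.25, edgeR adjusted p = 0.663). For smg-4 it was -0.34 (SE 0.26, edgeR adjusted p = 0.737), and for smgl-2 0.35 (SE 0.36, edgeR adjusted p = 0.807). These genes were measured in the same 6 libraries as the rsp genes.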

How the data were processed

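Messenger RNA of plp-1(ok2155) and wild-type N2 animals, 3 libraries each, was sequenced from stranded mRNA libraries of Tri-reagent extracts, per the labels' protocols. The submitters' processing notes name the read aligners HISAT2 2.1.0 and Bowtie2 2.3.4.1 and the assembler StringTie 1.3.4d, besides DESeq2 and the quality tools FastQC 0.11.7 and Trimmomatic 0.38, with no role or order, and the labels name the WBcel235 assembly. The authors deposited estimated counts, written as whole numbers and entered here as deposited, and FPKM values per gene and per transcript, with the model length. The transcript counts of each gene add up to its gene count, and all 28298 mRNA models had a length that is a multiple of 3, so they hold coding length. How reads were shared between transcripts is not shown in the tables. 24 entries without a symbol, which held 0.00236% to 0.0246% of a library's counts, were left out.

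CPM used TMM library sizes. Low genes were removed with filterByExpr. Genes and transcripts were tested with the quasi-likelihood method of edgeR 4.0.16 (R 4.3.3) on the group alone, with Benjamini-Hochberg adjustment at 0.05 over all genes or transcripts, and transcript use was tested with diffSpliceDGE. Standard errors were derived from fold changes and F statistics. The steps were run on simulated counts with less spread than these libraries and larger fold changes than those of the rsp genes. That run does not show how small a change could be called here, or how many calls would be false. Alternatives were DESeq2 1.42.0, RLE and upper-quartile scaling, no filter, the replicate number as a block, each library left out in turn, and library totals without TMM, the last chosen after seeing the data.

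Libraries with the same replicate number deviated together from their group means, with correlations of 0.28, 0.21 and 0.36 for replicates 1, 2 and 3 over all tested genes. All exceed 0.1, and libraries of unlike number had correlations between -0.3396 and -0.041. Deviations from a group mean cancel out, so both signs must occur, and a cut of 0.1 cannot establish a pairing. The numbers were therefore used as a block in an alternative fit only, from the data and not from a statement in the labels.

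The rsp genes and all gene lists were chosen with earlier results of these data known. Genes were named by rule: all rsp genes and transcripts, plp-1, up to 3 members with the smallest p of each splicing list, and the genes with the nearest profiles, the 3 nearest to the family mean and the 1 nearest to each rsp gene, among genes of at least 20 CPM. All 17 deposited rsp models matched a WormBase model by span and length and are called by its name.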

Additional observations from a re-analysis of the deposited data

How the results depend on the processing

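No rsp gene was called in any of the 13 settings run, no rsp transcript in any setting, and no rsp gene in any setting of the use test. With the replicate block the smallest adjusted p of an rsp gene was 0.384, and the block changed no rsp call. Counts over all tables moved more. Genes called were 219 with the block, 563 with DESeq2, 34 with library totals without TMM and between 1 and 23 with 1 library left out, against 52. Transcripts called were 0 with the block, 529 with DESeq2 and between 0 and 24 with 1 library left out, against 12. Genes called for use were 4 with the block and between 7 and 22 with 1 library left out, against 16. The transcripts with no overlap in share, 2 of 15 with all libraries, were between 2 and 9 with 1 library left out: 4 without mutant replicate 3, where 22.8% of all such transcripts did not overlap, and 9 without wild-type replicate 2, where 23.1% did not, against 11.4% with all libraries. These counts include both transcripts of genes with 2, whose shares mirror each other.

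Leaving out 1 library turned the sign of small log2 fold changes, with ranges of -0.0071 to 0.38 for rsp-1, -0.02 to 0.25 for rsp-5 and -0.0334 to 0.34 for rsp-7. For transcripts the ranges were -0.0587 to 0.42 for W02B12.3a, -0.0698 to 0.73 for W02B12.3b, -0.1332 to 0.21 for W02B12.3d, -0.0348 to 0.27 for T28D9.2a, -0.0628 to 0.29 for C33H5.12b and -0.046 to 0.33 for D2089.1a. The cause was not tested. Share differences also changed sign with 1 library left out, with ranges in percentage points of -3.73 to 0.806 for C33H5.12b, -1.29 to 0.197 for W02B12.3d, -0.137 to 0.185 for W02B12.3b and -0.324 to 0.238 for EEED8.7b. Among main transcripts, the range was -0.4282 to 4.68 for C33H5.12a and -0.2375 to 0.324 for EEED8.7a. The other 5 rsp genes stayed positive in every setting, and rsp-8 ranged from 0.26 to 0.51 with 1 library left out. The order of rsp-1 and rsp-4 exchanged with CPM per kilobase.

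Depth did not limit the genes, at 2189 counts or more, but W02B12.3c rests on 11 to 22 counts a library. With 3 libraries a group, the 95% intervals of rsp gene folds were wide, up to 0.748 to 2.09 for rsp-2.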
